A study of Mus musculus with 12 samples.

Results

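Hox genes encode homeodomain transcription factors that give cells their position along the body axis. They lie in 4 clusters, and the order of the genes in a cluster follows the order of their expression from head to tail, so that low-numbered (anterior) and high-numbered (posterior) paralogues mark different levels of the body. Polycomb complexes keep unused Hox genes closed and trithorax complexes keep used ones open, and fibroblasts retain the Hox pattern of the place they came from. The chromatin of the Hoxa, Hoxb, Hoxc and Hoxd clusters was measured here by ATAC-seq, in which the Tn5 transposase inserts adaptors into accessible DNA. Peaks were chosen by position alone, from the first to the last of the 38 member genes of each cluster plus 20 kb on each side, which took 135 of the 176680 peaks in the deposited comparison. Of these, 32 lay in Hoxa, 42 in Hoxb, 25 in Hoxc and 36 in Hoxd.

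The study made 12 libraries in 4 groups of 3 from primary wild-type C57BL/6N mouse embryonic fibroblasts (MEFs) of E13.5 embryos, and the comparison analysed here concerns 6 of them. Both of its arms received lentiviruses encoding rtTA, which drives doxycycline-induced transgenes, and 4in1, a vector with the liver inducers of hepatocyte reprogramming. The 4in1_GFP_OE group also received GFP and the 4in1_Prox1_OE group FLAG-mmProx1, the homeodomain factor PROX1 of mouse. Both arms were transduced in medium with polybrene at the same concentration, and were harvested on day 2 in doxycycline at 2 ug per ml. Per the study's methods the MEFs were cultured from distal limb tissue pooled over several embryos, so they stand for that body site and not for the whole embryo. They are a primary culture, and the share of cells that carried each virus is not given in the sources used here. The question asked of the Hox clusters was whether adding Prox1 to the inducers went with a difference in accessibility, and whether this varied between clusters and between anterior and posterior paralogues.

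For each peak the deposited values are the authors' means per group, log2 of a mean normalized read count, with no value per library. No spread between replicates could therefore be given and no difference was tested. Every difference below is the Prox1 arm's mean minus the GFP arm's mean on the log2 scale, and a peak is counted as lower or higher only where this was -1 or less or 1 or more, that is 2-fold. A smaller share of cells with a site open and less accessibility of that site in each cell cannot be told apart in such bulk libraries. Over all 176680 peaks the median difference was -0.42, so a difference between -0.42 and 0 turns positive once that median is set to 0.

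The labels were checked against markers. Of 10 fibroblast markers all had a promoter peak, with GFP-arm means of 156 to 784, and the median difference over them was -0.41. None of 7 hepatocyte markers, albumin included, had one. A promoter peak was also present for 3 of 4 endothelial, 1 of 4 blood and 3 of 3 epithelial markers, with median differences of -0.68, -0.51 and 0.13. One fibroblast marker, Prrx1, passed the size rule downwards (-1.27), as did the endothelial marker Pecam1, and the epithelial marker Epcam passed it upwards. Prrx1 did not pass with the mean of its promoter peaks (-0.91) or with the most accessible peak within 2 kb (-0.27). The part of these cells in the Hox values was not tested. Over the coding exons of Prox1, 3 peaks had means of 3.42 to 16.1 in the GFP arm and 1632 to 6847 in the Prox1 arm, where reads from the introduced cDNA and from the chromosomal gene cannot be told apart.

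The sequences of 3 of the 201-base windows are shown because the results below turn on them. Among peaks at or above the median level of all peaks, they are the most negative and the most positive of Hoxa and the most negative of Hoxd. Each is the plus strand of GRCm38 (mm10), with capitals marking a motif match.
Peak 9799 bases beyond the Hoxa13 start, chr6:52270579-52270779, intergenic, capitals mark a CTCF match with 1 mismatch: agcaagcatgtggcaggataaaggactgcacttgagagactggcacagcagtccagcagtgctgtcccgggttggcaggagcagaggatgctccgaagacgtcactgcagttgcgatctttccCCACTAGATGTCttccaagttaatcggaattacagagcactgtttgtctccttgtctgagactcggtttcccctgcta
Hoxa6 promoter peak, chr6:52208727-52208927, in introns of longer Hoxa3 transcripts, no motif match: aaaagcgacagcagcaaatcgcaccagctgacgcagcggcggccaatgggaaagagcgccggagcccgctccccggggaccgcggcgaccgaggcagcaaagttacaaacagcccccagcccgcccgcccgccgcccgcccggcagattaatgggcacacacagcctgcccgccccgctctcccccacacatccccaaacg
Hoxd11 intron peak, chr2:74679523-74679723, capitals mark an AP-1 match: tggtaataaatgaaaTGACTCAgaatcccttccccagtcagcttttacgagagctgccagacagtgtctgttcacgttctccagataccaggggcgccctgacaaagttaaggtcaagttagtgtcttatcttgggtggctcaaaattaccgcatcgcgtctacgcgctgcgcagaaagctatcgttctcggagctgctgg

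Taken over the 4 clusters the arms differed little. The median difference of the 135 peaks was -0.14 (quartiles -0.38 and 0.15), against -0.42 for all peaks (quartiles -0.99 and 0.07), and it became 0.28 once the all-peak median was set to 0. Of the 135 peaks, 84 lay below 0 (62.2%), where 72.3% of all peaks did, and 106 lay above the median of all peaks. The size rule was passed downwards by 5 peaks (3.70%), where 24.4% of all peaks passed it, and upwards by 3 peaks (2.22%), where 8.33% of all peaks did. With the all-peak median set to 0, no Hox peak was lower and 8 were higher, beside 8.64% and 13.4% of all peaks. Each of these 4 counts was a smaller share of the Hox clusters than of the whole table, but Hox peaks lie near start sites more often than other peaks do. Among peaks within 1 kb of an annotated start site, 1.49% of 67 Hox peaks were lower against 8.26% of 22215, and 4.48% were higher against 3.16%. With the all-peak median set to 0, 7 of the 67 were higher, against 1441 of the 22215, so the upward counts did not lie under those of this class.

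The 4 clusters stood at different levels in the GFP arm. There the median of the peaks' mean counts was 356 in Hoxa and 256 in Hoxd, but 101 in Hoxb and 116 in Hoxc, against 122 for all peaks. In the top quartile of all peaks by overall level were 20 of 32 Hoxa and 24 of 36 Hoxd peaks, beside 10 of 42 Hoxb and 5 of 25 Hoxc peaks. Peaks were densest in Hoxd, at 26.3 per 100 kb of window, and sparsest in Hoxc, at 16.1.

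The median difference was -0.20 in Hoxa and -0.19 in Hoxd, both of which became 0.22 with the all-peak median set to 0. In Hoxb it was 0.05 and in Hoxc 0.06, or 0.47 and 0.48 on that scale. Of the Hoxa peaks, 27 of 32 lay below 0, as did 25 of 36 in Hoxd, while in Hoxb this held for 20 of 42 and in Hoxc for 12 of 25. As shares these were 84.4%, 69.4%, 47.6% and 48.0%, so that only Hoxa exceeded the 72.3% of all peaks, and of all peaks in the top quartile by level 88.2% lay below 0. Hoxa held 4 of the 5 lower peaks and none of the higher ones, and Hoxb, Hoxc and Hoxd held 1 higher peak each. The clusters with more accessible peaks in the GFP arm were therefore the ones with the lower medians, without a test of the difference between clusters. The GFP-arm mean is also the term subtracted in each difference, so that level and the difference are not independent. Within clusters the Spearman rho of peak level and difference was 0.07 in Hoxa, -0.06 in Hoxb, 0.23 in Hoxc and -0.33 in Hoxd.

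The contrast between clusters was also present within each class of peak. Peaks within 1 kb of any annotated start site (promoter peaks) had a median of -0.16 in Hoxa, 0.19 in Hoxb, 0.21 in Hoxc and -0.17 in Hoxd, against -0.21 for the 22215 promoter peaks of the whole table. The other (distal) peaks had medians of -0.36, 0.04, -0.10 and -0.35 in the same order, against -0.49 for 154465 distal peaks, so that in every cluster the distal median lay under the promoter median. With the all-peak median set to 0 all 8 of these medians were above 0.

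**Figure D1:**
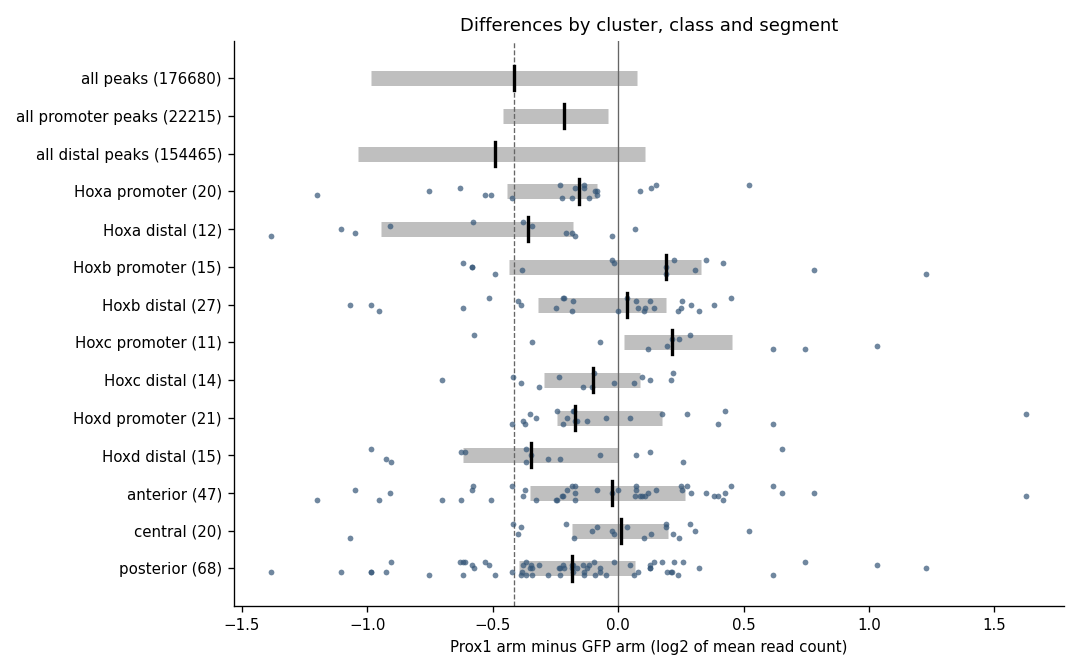
Differences between the arms (log2 of mean read count, Prox1 minus GFP) for peak classes, with the number of peaks in brackets. Black bars are medians, grey bars the quartiles, dots single Hox peaks, the solid line is 0 and the dashed line the all-peak median of -0.42. The medians of Hoxb and Hoxc promoter peaks (0.19 and 0.21) sit to the right of those of Hoxa and Hoxd (-0.16 and -0.17, which turn positive with the all-peak median set to 0).

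The values near the ends of the windows were as follows. Inside the gene-bounded clusters 115 peaks had a median of -0.11, and the 20 peaks of the flanks had -0.20, with 3 of the 5 lower peaks among the latter. The 8 peaks just inside the window edges ranged from -0.49 to 0.40 with a median of 0.05, and the 8 just outside from -1.34 to 0.99 with a median of 0.06. Both medians were above 0 on either scale.

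Hoxa had values below 0 at both ends. Nearest to an anterior gene, 12 of 15 peaks lay below 0, with a median of -0.18 and a first quartile of -0.54, the median being positive with the all-peak median set to 0. All 13 peaks nearest to Hoxa9, Hoxa10, Hoxa11 or Hoxa13, genes of the limb, trunk end and urogenital tract, lay below 0, with a median of -0.35 that turns into a positive value when the all-peak median is set to 0. The most negative difference in all clusters was that of the intergenic peak beyond Hoxa13 whose sequence is shown above with the CTCF match, where the mean count was 235 in the GFP arm and 89.97 in the Prox1 arm (-1.38). Between Hoxa11 and Hoxa13 the intergenic peak at chr6:52251395-52251595, which holds an AP-1 match, had means of 381 and 177 (-1.11). Both kept a negative value relative to the all-peak median. Closest to 0 were promoter peaks of Hoxa9 (-0.09), Hoxa10 (-0.12) and Hoxa13 (-0.13).

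At the anterior end of Hoxa lay the remaining lower peaks of that cluster. The peak at chr6:52160818-52161018, in an intron of Hotairm1, an antisense noncoding RNA of the anterior Hoxa cluster, had means of 364 and 159 (-1.20). An intergenic peak 13949 bases beyond the Hoxa2 start, chr6:52150782-52150982, had means of 193 and 93.4 (-1.05). Its neighbour further out, chr6:52146399-52146599, had 116 and 114 (-0.03). Peaks with large and small differences thus stood side by side.

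In Hoxd, whose posterior genes pattern limbs and genitalia, the more negative values also fell in the posterior part and between promoters. The Hoxd11 intron peak shown above had means of 433 and 219 (-0.98). Another intronic Hoxd11 peak, chr2:74686406-74686606, had 356 and 190 (-0.91), and an intergenic peak 4533 bases beyond the Hoxd13 start had 411 and 217 (-0.92). None of these reached the size rule. The promoter peaks of the genes around them differed by -0.13 for Hoxd13, -0.05 for Hoxd12, -0.35 for Hoxd11 and -0.42 for Hoxd10.

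Hoxd also held the most positive peak of the 4 clusters. It lay 19 bases from a Hoxd4 start site, under the 5′ untranslated region, and had means of 27.7 and 85.5 (1.63). Its GFP-arm mean was the lowest of the 135 peaks, and it lay in the lowest quartile of all peaks by level, without which 2 higher peaks were left. Among peaks at or above the median level of all peaks, the most positive Hoxd peak was the one at a Hoxd3 start site, chr2:74736389-74736589, with a difference of 0.62.

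The most positive values of Hoxb and Hoxc were those of promoter peaks. In Hoxb, though, values on either side of 0 occurred in both classes, with 7 of 15 promoter and 13 of 27 distal peaks below 0. The Hoxb9 promoter peak had means of 134 and 313 (1.23), and was the 1 Hox peak in the top quartile of all peaks by level to pass the size rule upwards. Between Hoxb9 and Hoxb8, an intergenic peak at chr11:96277607-96277807 had 113 and 53.8 (-1.07), the single lower peak of Hoxb. Among the Hoxb peaks at or above the median level of all peaks, the most negative lay between Hoxb13 and Hoxb9, chr11:96240301-96240501, with 259 and 169 (-0.62). In Hoxc no peak was lower by the size rule, and the most negative of those at or above that level, chr15:102987510-102987710 between Hoxc9 and Hoxc8 and in an intron of a long Hoxc5 transcript, had 319 and 239 (-0.42).

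**Figure D2:**
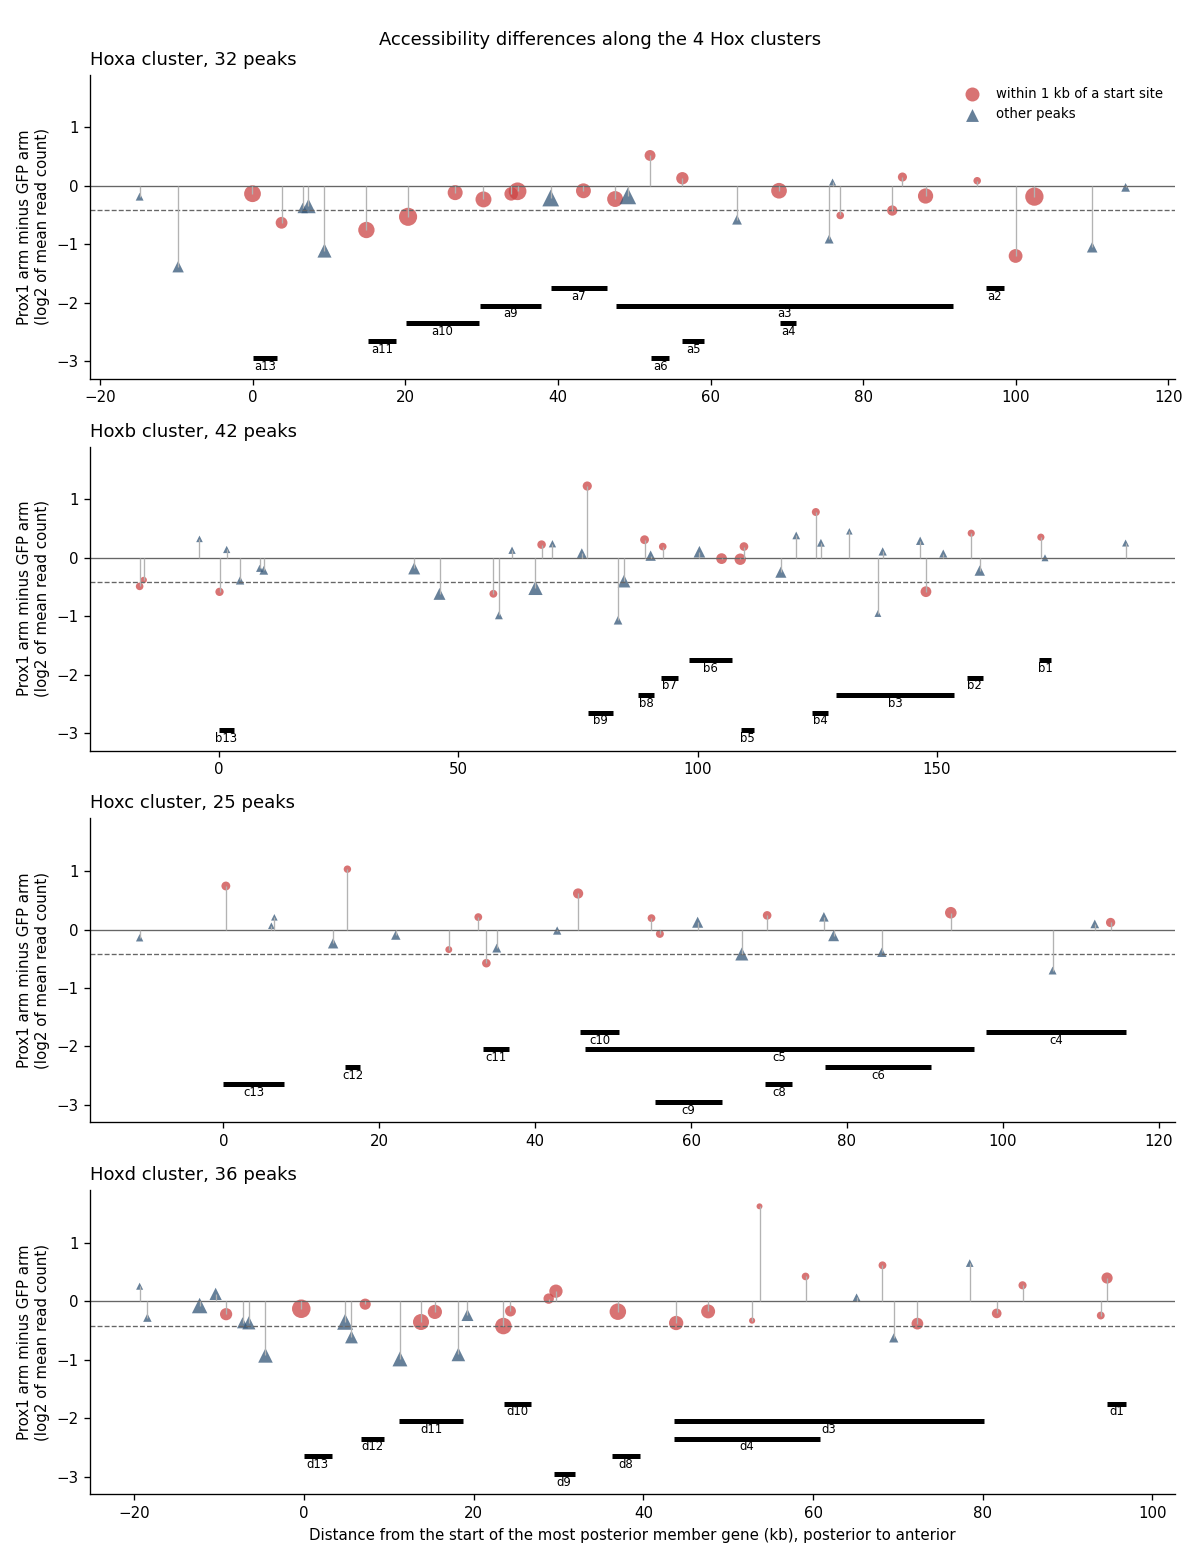
Each peak of the 4 clusters by its distance (kb) from the start of the most posterior member gene and its difference between the arms (log2, Prox1 minus GFP), with marker area rising with the GFP-arm mean count and black bars for the member genes. The dashed line is the all-peak median of -0.42, and values between it and 0 turn positive when it is set to 0. The 13 posterior Hoxa peaks all lie below 0, whereas the tallest positive values of Hoxb and Hoxc are promoter peaks (1.23 and 1.03).

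Promoters were then followed gene by gene, taking for each gene the peak of highest overall level within 1 kb of a start site. A promoter peak was found for 35 of 38 members and for none of Hoxa2, Hoxb3 and Hoxc6. Its median difference over the 35 was -0.02, with 18 below 0 and 17 above, and 30 lay above the all-peak median. By the size rule none was lower and 2 were higher, beside 8.26% and 3.16% of all promoter peaks.

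Promoter levels in the GFP arm covered a range from 62.4 to 693. The highest was that of Hoxd13, the most posterior Hoxd gene, with 693 in the GFP arm and 635 in the Prox1 arm (-0.13). Hoxa10 followed with 663 and 459, and Hoxa9 with 628 and 589. At the low end stood Hoxb2 with 62.4 and 83.5 (0.42), Hoxb1 with 63.4 and 80.8 (0.35), and Hoxc12 with 71.2 and 146. Hoxb1 and Hoxb2 are hindbrain genes. For Hoxb2 the most accessible peak within 2 kb had the opposite sign, at -0.22. The 3 highest were thus posterior genes of Hoxa and Hoxd and the 3 lowest genes of Hoxb and Hoxc, although the central Hoxd8 (541) and the anterior Hoxa3 (497) also stood high and Hoxd4 (77.9) low.

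Of the 6 most negative promoter differences, 5 were those of posterior genes, which held 16 of the 35 promoter peaks. Hoxa11, which acts in limb and uterus development, came first with means of 529 and 314 (-0.76). Hoxb13 had 100.4 and 67.0 (-0.58), Hoxc11 had 111 and 74.7 (-0.58), and Hoxa10 had -0.53. Hoxd10 followed with 541 and 404 (-0.42), at the all-peak median to 2 decimals, and the 4 genes before it lay below that median. The anterior gene was Hoxd3, with 393 and 304 (-0.37), which turns positive with the all-peak median set to 0. Its peak lies at the start of a long transcript, nearest to Hoxd8 by coding start. Averaging all promoter peaks of a gene gave -0.045 for Hoxd3, -0.18 for Hoxc11, -0.32 for Hoxa10 and -0.29 for Hoxd10.

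The 6 most positive promoter differences were mostly those of posterior genes as well, namely Hoxb9, Hoxc12, Hoxc13 and Hoxc10. After Hoxb9 came Hoxc12 with means of 71.2 and 146 (1.03), whose peak lay in the coding sequence. Its direction depended on the peak chosen, since the most accessible peak within 2 kb had -0.24. Hoxb4, a gene known for its effect on blood stem cells, had 89.5 and 154 (0.78), and Hoxc13, which acts in hair and nails, had 122 and 204 (0.74). Hoxc10 had 178 and 274 (0.62), and Hoxa6 had 209 and 299 (0.52), with the latter peak also printed above. Of these 6, Hoxc10 had an AP-1 match in its window and Hoxb9 a match to letters that PBX and HOX proteins bind together.

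**Figure D3:**
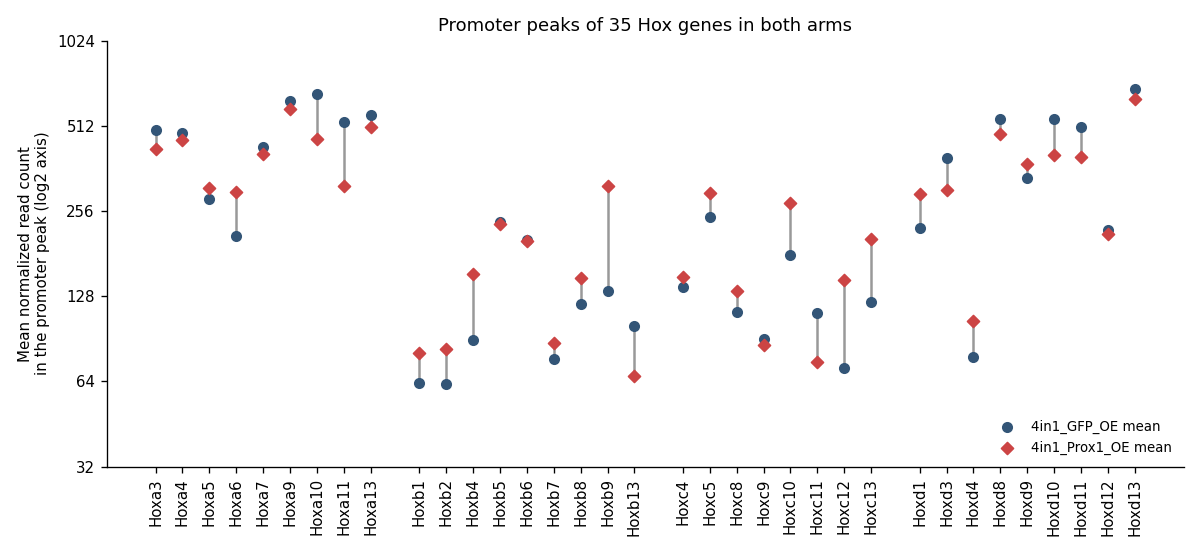
Mean normalized read count (log2 axis) in the promoter peak of 35 Hox genes, ordered by cluster and paralogue number, with circles for the 4in1_GFP_OE mean and diamonds for the 4in1_Prox1_OE mean. Levels run from 62.4 (Hoxb2) to 693 (Hoxd13) in the GFP arm, and the widest gaps are those of Hoxb9 (134 and 313) and Hoxc12 (71.2 and 146).

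Paralogues of one group descend from a common ancestral gene and have related roles, but their promoters did not differ alike. In group 4, whose genes act at the hindbrain and neck levels, Hoxa4 had a difference of -0.08, Hoxb4 of 0.78, Hoxc4 of 0.12 and Hoxd4 of 0.43. In group 8, of trunk genes, Hoxb8 had 0.31, Hoxc8 0.24 and Hoxd8 -0.18. All of these were above 0 with the all-peak median set to 0.

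In group 9, which acts at thoracic and lumbar levels, the promoter of Hoxb9 stood apart at 1.23 from Hoxa9 at -0.09, Hoxc9 at -0.07 and Hoxd9 at 0.17. In group 13, of the tail end and the digits, Hoxc13 had 0.74 where Hoxa13 and Hoxd13 had -0.13 each and Hoxb13 had -0.58. In groups 3 and 11 the chosen promoter peak of every gene that had one lay below 0, although a further peak at a Hoxd3 start site had 0.62 and one at Hoxc11 had 0.21. In group 3 Hoxa3 had -0.23 and Hoxd3 -0.37, both positive with the all-peak median set to 0, and both at starts of long transcripts whose nearest coding start is that of another gene, Hoxa7 and Hoxd8. In group 11, of limb and kidney genes, the values were -0.76, -0.58 and -0.35 for Hoxa11, Hoxc11 and Hoxd11, and only that of Hoxd11 turned positive with the all-peak median set to 0. The 10 peaks nearest to a group 11 gene had a median of -0.46, and 9 of them lay below 0.

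**Figure D4:**
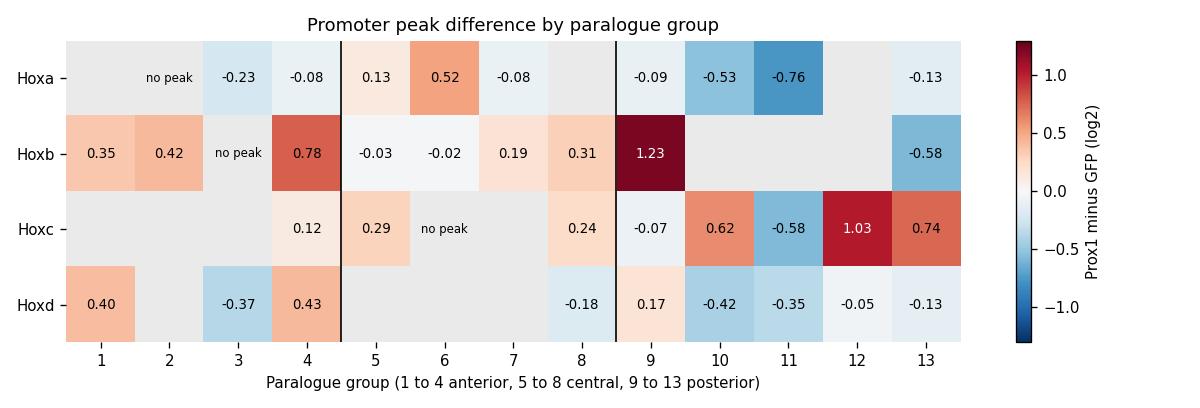
Difference of the promoter peak (log2, Prox1 minus GFP) for each member gene by cluster and paralogue group, red above 0 and blue below, grey where a cluster has no member or no peak. Values between -0.42 and 0 turn positive when the all-peak median is set to 0. Hoxb9 (1.23) and Hoxc12 (1.03) are the deepest red and Hoxa11 (-0.76) the deepest blue.

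Anterior (groups 1 to 4), central (5 to 8) and posterior (9 to 13) peaks were compared next, each peak being given to the member gene with the nearest start site. The 47 anterior peaks had a median of -0.03, the 20 central ones of 0.01 and the 68 posterior ones of -0.18, all of which were above 0 with the all-peak median set to 0. Below 0 lay 25 anterior, 10 central and 49 posterior peaks. The anterior median exceeded the posterior one by 0.16. This rested on Hoxb, since without its 42 peaks the gap was 0.010.

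The gap had the same sign within every cluster. It was 0.45 in Hoxb, where the 15 anterior peaks had a median of 0.25 and the 18 posterior ones of -0.20, and the latter turned positive with the all-peak median set to 0. It was 0.18 in Hoxd, 0.16 in Hoxa and 0.07 in Hoxc, which has 3 anterior peaks. The Hoxd value was 0.06 with groups 1 to 8 set against 9 to 13, and 0.41 with peaks given to the nearest coding start, an assignment chosen after seeing the data. Level moved with segment too, the median GFP-arm count being 104 for anterior, 210 for central and 186 for posterior peaks, and its part in the gap was not tested. The choice of peaks mattered as well. Among peaks near any start site the medians were -0.17 for 25 anterior and -0.14 for 31 posterior peaks, and among distal peaks 0.03 for 22 and -0.23 for 37, the negative ones turning positive with the all-peak median set to 0. For the promoter peaks of member genes the medians were 0.35 for 9 anterior, 0.16 for 10 central and -0.11 for 16 posterior peaks, and the last of these also turned positive on that scale.

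Composition set the Hox windows apart from the table. Their median GC content was 60.7%, against 48.8% for all peaks, and their median number of CpG dinucleotides was 13 against 2. Promoter peaks made up 49.6% of Hox peaks and 12.6% of all peaks. Across the 135 peaks GC content and difference had a Spearman rho of 0.38, with 0.25 across all peaks and 0.58 across the 32 Hoxa peaks. These are descriptions, since all peaks share the same 6 libraries and neighbouring windows share base composition.

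Values at matched level and matched composition were therefore set side by side. In the top quartile of peaks by level, 35 Hox promoter peaks had a median of -0.14 where all 14436 promoter peaks had -0.21, and 24 Hox distal peaks had -0.35 where all 29734 had -0.60. In the quartile below it, 14 Hox promoter peaks had 0.23 against -0.32. In the lowest quartile 6 Hox promoter peaks had -0.36 against 0.04, while 12 Hox distal peaks had 0.07 against -0.12. In the quartile of highest GC content, which held 104 Hox peaks, the medians were -0.08 and -0.17. In the second GC quartile 10 Hox peaks had -0.40 against -0.62, and in the third the order turned, 16 Hox peaks having -0.45 against -0.41. Setting the all-peak median to 0 adds the same 0.42 to both sides of each pair.

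**Figure D5:**
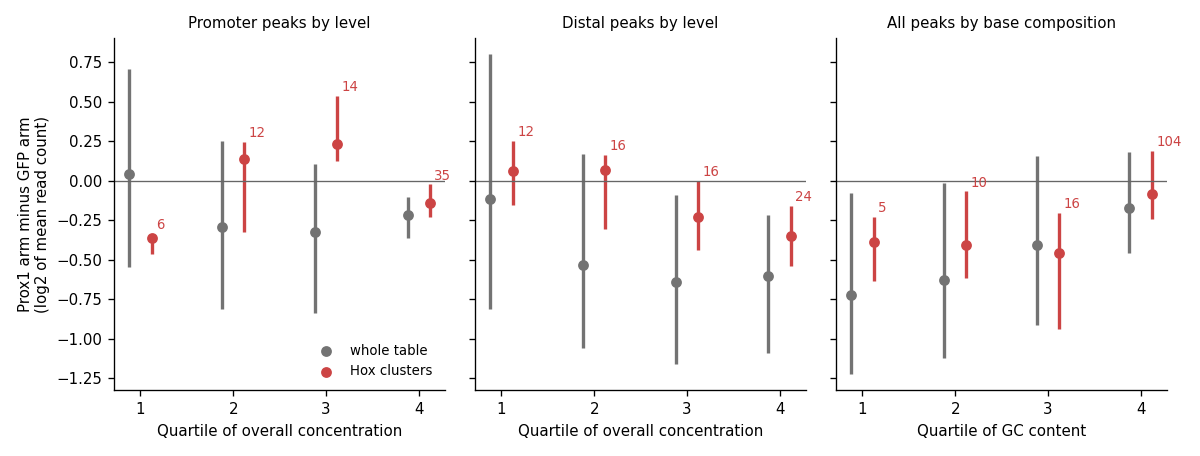
Median difference (dots) with its quartiles (bars), log2 Prox1 minus GFP, in quartiles of peaks by overall level or GC content, for the whole table in grey and the Hox clusters in red with the number of Hox peaks. The Hox median lies above that of the table except for promoter peaks of the lowest level quartile (-0.36 and 0.04) and for the third GC quartile (-0.45 and -0.41).

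Short motifs were searched on both strands of every window. The AP-1 letters TGANTCA were in 9 of 135 Hox windows (6.67%) and in 28.8% of all windows. The letters TGATNNAT, bound by PBX and HOX proteins together, were in 13 (9.63%) and in 9.62% of all, and a stretch that holds them can also hold the AP-1 letters. The homeodomain letters TAATTA were in 0 Hox windows and in 2.84% of all windows. With up to 1 mismatch, the CTCF consensus matched 7 Hox windows (5.19%) and 10.5% of all, and the Prox1 consensus matched 1 (0.74%) and 0.30% of all.

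Differences by motif ran as follows. The 9 Hox windows with the AP-1 letters had a median of -0.18, against -0.82 for all 50807 windows that hold them. The 13 with the PBX-HOX letters had -0.09, against -0.55, and 7 of these 13 lay in Hoxa. The 7 with a CTCF match, 4 of them in Hoxa, had -0.37, against -0.18 for all 18509 such windows, so CTCF windows were the one class in which the Hox median was the lower. With the all-peak median set to 0 each of the Hox medians turned positive. A match is a description of the letters and says nothing of binding.

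MicroRNA genes of the clusters repress Hox and other transcripts, and 6 were matched inside the windows. Their mature 5p strands are given from RefSeq (GRCm38.p6), with the seed (bases 2 to 8) in capitals, because they fall into families that cross the clusters.
miR-10a-5p, chr11:96317186-96317208, Hoxb: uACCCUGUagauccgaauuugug
miR-10b-5p, chr2:74726074-74726096, Hoxd: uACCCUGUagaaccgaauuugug
miR-196a-5p, chr11:96265187-96265208 in Hoxb and chr15:102973365-102973386 in Hoxc: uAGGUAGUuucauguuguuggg
miR-196b-5p, chr6:52230129-52230150, Hoxa, minus strand: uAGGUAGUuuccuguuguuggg
miR-615-5p, chr15:103014926-103014947, Hoxc: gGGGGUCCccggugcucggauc

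The miR-10 genes share one seed and the miR-196 genes another. The peak nearest to Mir10a was the Hoxb4 promoter peak, 1.74 kb away (0.78), and that nearest to Mir10b was the Hoxd4 promoter peak, 1.24 kb away (0.43). Near Mir196a-1 and Mir196a-2 the nearest peaks had mean counts of 68.1 and 80.4, and of 81.7 and 93.5 (0.24 and 0.20). The peak 0.417 kb from Mir196b was much more accessible, at 502 and 427 (-0.23, positive with the all-peak median set to 0). Mir615 shared the promoter peak of Hoxc5 (0.29). The copies in Hoxb, Hoxc and Hoxd thus had a peak above 0 as their nearest, and Mir196b, in Hoxa, had one below 0 before that adjustment.

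Genes that act with or on Hox genes were read at their own promoters. Of 28, 26 had a promoter peak, with a median difference of -0.24, positive with the all-peak median set to 0, and 21 below 0, where 77.9% of all promoter peaks lay below 0. None passed the size rule in either direction, beside 8.26% of all promoter peaks lower and 3.16% higher. The median GFP-arm count was 600.4, above that of every Hox cluster. Pbx3, a cofactor that binds DNA with HOX proteins, differed by -0.07. Other listed Pbx, Meis and Pknox genes had more negative values. These were Pknox1 (-0.20), Meis2 (-0.24), Pbx4 (-0.34), Pbx2 (-0.36), Meis3 (-0.60) and Pknox2 (-0.64). Of these, Meis3 and Pknox2 stayed negative with the all-peak median set to 0. The Polycomb genes Ezh2, Rnf2, Suz12 and Eed had -0.29, -0.28, -0.27 and -0.24, each above 0 with the all-peak median set to 0. The Polycomb genes Ezh1, Bmi1 and Cbx2 had values just above 0, at 0.04, 0.05 and 0.07. Kmt2a, a trithorax gene, had -0.23. Cdx2 and Cdx1, activators of trunk Hox genes, had the most positive values, 0.85 and 0.72, at low counts of 112 and 68.6 in the GFP arm. The mean over the promoter peaks of Cdx1 was 0.31. Cdx4 had -0.10, positive with the all-peak median set to 0, at a GFP-arm count of 70.0. Meis1 and Kdm6b had no peak within 1 kb of a start site.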

How the data were processed

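Per the study's methods and the submitters' processing notes, the authors used Trimmomatic 0.38 for trimming, Bowtie2 2.3.4.3 for alignment (mm10), SAMtools 1.10, Picard 2.18.16 and bedtools 2.27.1 for filtering, and DiffBind 3.4.11 for the comparison of peaks. The methods name MACS2 as peak caller and the reporting summary Genrich, so the caller is uncertain, and the normalization setting is not given in the sources used here. The deposited concentrations are on a log2 scale, each the mean of normalized counts in a window, 1 for all 6 libraries and 1 for each arm. The table's other 3 columns of results hold the authors' fold changes, p-values and FDR, and a pair of interval lists hold the calls made from them, and none of these was used. Libraries' depths are unknown from these values, so no interval, SD or test was possible. An all-peak median other than 0 moves every difference, so values are also given with it set to 0.

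Peaks were joined to GENCODE M21 start sites (basic transcripts) and GRCm38 sequence in Python 3.11.15 with pandas 2.3.3 and pysam 0.24.0, and the code was tested on simulated data. Hox windows are 201 bases wide. Genes named are the members with the 3 highest and 3 lowest promoter levels and the 6 most negative and 6 most positive promoter differences, paralogue groups shared by several clusters, the most negative and most positive peak per cluster at or above the median level, listed cofactors, and noncoding genes in the windows. Other peaks past the size rule, further Hoxd and anterior Hoxa peaks, and groups 3 and 11 were named after their values were seen. The members, lists and rules were chosen with earlier results of these data known. The MEF and Prox1_OE groups were not analysed here. The values of 1 listed cofactor and a pair of window sequences are not reported here.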

Additional observations from a re-analysis of the deposited data

How the results depend on the processing

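No paired analysis was possible because the deposited values are group means, and no library could be left out. As no replicate spread exists, a median was taken as kept when it moved by less than 0.1 and kept its sign, and a count when it stayed within 1.5 times. With the all-peak median set to 0, or the summed means made equal, the median difference became 0.28 and 0.28 for all Hox peaks, 0.22 and 0.22 for Hoxa, 0.47 and 0.47 for Hoxb, 0.48 and 0.48 for Hoxc, and 0.22 and 0.22 for Hoxd, the lower peaks went from 5 to 0 and the higher ones from 3 to 8 on both scales. A size of 1.5 left 0 lower and 1 higher peak, and windows without flanks left 2 lower ones. With 50 kb flanks the Hoxb median was -0.026. Promoter peaks alone gave 0.19 for Hoxb and 0.21 for Hoxc, and distal peaks alone -0.36 for Hoxa, -0.10 for Hoxc and -0.35 for Hoxd. The anterior minus posterior gap of 0.16 became 0.34 for member promoter peaks, 0.28 without Hoxa and 0.010 without Hoxb. Giving peaks to the nearest coding start, chosen after seeing the data because long transcripts begin inside neighbouring genes, moved 5 peaks between segments and gave 0.25. For promoters, the most accessible peak within 2 kb turned Hoxb2 to -0.22 and Hoxc12 to -0.24 and moved Hoxb7 and Hoxb8 to 0.035 each, Hoxc11 to -0.32 and Hoxd12 to -0.35, and the mean of a gene's promoter peaks turned Hoxb5 to 0.082 and Hoxc9 to 0.060 and moved Hoxa10 to -0.32, Hoxc11 to -0.18, Hoxd1 to 0.078, Hoxd3 to -0.045, Hoxd4 to 0.57 and Hoxd10 to -0.29. The cause of these moves was not tested beyond the changed set of peaks. Low counts, down to 27.7 in the named peaks, limit how firmly a single difference can be read.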

Other observations

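The windows also held 49 noncoding genes with a start site in them, of which 26 had a peak within 1 kb, at 20 distinct places. Their median difference was -0.18, with 14 below 0, 1 lower by the size rule (the Hotairm1 intron peak, at small noncoding RNA annotations) and none higher, and it turns positive with the all-peak median set to 0. Of all promoter peaks, 77.9% lay below 0, 8.26% were lower and 3.16% higher. Of the 20 peaks, 4 were also the promoter peak of a Hox gene, among them that of Hoxa11os, the antisense transcript of Hoxa11 (-0.76). Hoxaas3, antisense in the anterior Hoxa cluster, had means of 132 and 146 (0.15). Haglr, at the Hoxd3 to Hoxd1 interval, had 155 and 134 (-0.21). Hotair in Hoxc and Hottip beyond Hoxa13, long noncoding RNAs known to act with Polycomb and trithorax complexes, had no peak within 1 kb of a start site.

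Evx2, a homeobox gene next to Hoxd13 that is regulated with the posterior Hoxd genes, had a promoter peak with means of 274 and 236 (-0.22, or 0.20 with the all-peak median set to 0). Of the other peaks in its coding sequence, chr2:74655918-74656118 differed by -0.07 and chr2:74657804-74658004 by 0.13.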
